A study of Mus musculus with 12 samples.

Results

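The R-spondin module of Wnt signaling was examined in whole adrenals, as the messenger RNA of 9 genes out of 39017 in the deposited count table. The genes were chosen by name: the 4 secreted R-spondins (Rspo1, Rspo2, Rspo3 and Rspo4), the 3 receptors that bind them (Lgr4, Lgr5 and Lgr6) and the membrane ubiquitin ligases Znrf3 and Rnf43. Of these, 6 passed the filter on low counts of the edgeR fit, and Rspo2, Rspo4 and Lgr6 did not and were compared between genotypes by an exact permutation test. RNA came from 12 female mice aged 10 to 11 weeks on a mixed sv129-C57Bl/6 background. The 6 control mice (Ctrl) were ASCre/+, carrying Cre recombinase at the aldosterone synthase gene Cyp11b2, which is active in zona glomerulosa (zG) cells from birth. Their sample titles read Wt_Ctr, however, and the study's text on the sequencing calls the controls wild type. The 6 β-catenin gain-of-function mice (βCat-GOF) were ASCre/+ ::Ctnnb1fl(ex3)/+. They carried the same Cre and, in addition, 1 Ctnnb1 allele whose exon 3 is removed by Cre, which leaves a β-catenin protein that escapes degradation. Since Cre acts in a subset of cortical cells and whole trimmed glands were sequenced, the values below are averages over mutant and non-mutant cells of the cortex, capsule and medulla. In such bulk samples, fewer cells of a type and less RNA per cell cannot be told apart.

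R-spondins amplify Wnt signaling. Znrf3 and Rnf43 tag Frizzled receptors with ubiquitin and so remove them from the cell surface, and an R-spondin bridging an Lgr receptor to either ligase takes the ligase itself off the membrane, which leaves more Frizzled and Lrp available to Wnt ligands. Both ligase genes are known in other tissues as transcriptional targets of β-catenin, which makes them negative feedback regulators. In the adrenal, Rspo3 is known as a signal from capsular cells to the zG beneath them, and Znrf3 as a brake on growth of the cortex.

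Total counts ran from 14090378 to 25625494 in Ctrl and from 13484675 to 24951480 in βCat-GOF libraries, so that 3 counts corresponded to between 0.117 and 0.222 CPM (counts scaled to a library of 1000000). The tissue label was checked on 5 genes of the steroid-producing cortex (Nr5a1, Star, Cyp11a1, Cyp21a1 and Hsd3b1), which summed to 51461 to 68567 CPM in Ctrl and 41823 to 84687 CPM in βCat-GOF, and on the medulla and capsule markers given with the results. The first number of the mouse labels differed between the genotypes, so a litter or batch that follows it cannot be told apart from genotype. For 3 mice (Ctrl replicates 1 and 3 and βCat-GOF replicate 1) the label extended that of another mouse, and nothing in the labels says whether such pairs share an animal. The study's figure legend for the sequencing gives 6 female mice per genotype. These 3 were counted as separate mice, and results that depend on them are given without them too. Whole-gene Ctnnb1 counts (log2 fold change -0.02, edgeR adjusted p = 0.907) do not measure exon 3, so they do not check the genotype labels.

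Rnf43 was the member with higher expression in βCat-GOF adrenals, and the sequence upstream of its start sites is shown for that reason. The gene (ENSMUSG00000034177) lies on chromosome 11 from 87662722 to 87735539, plus strand, in GRCm38. RefSeq gives 2 starts, and the 250 bases before each are printed 5′ to 3′ on the plus strand of GRCm38.p6. The upstream window, chr11:87662837-87663086, has a GC content of 44.4% and falls within a retained-intron transcript in GENCODE M21. The downstream window, chr11:87699647-87699896, has a GC content of 45.2% and lies inside the gene, ahead of a shorter coding transcript.
Rnf43 upstream start: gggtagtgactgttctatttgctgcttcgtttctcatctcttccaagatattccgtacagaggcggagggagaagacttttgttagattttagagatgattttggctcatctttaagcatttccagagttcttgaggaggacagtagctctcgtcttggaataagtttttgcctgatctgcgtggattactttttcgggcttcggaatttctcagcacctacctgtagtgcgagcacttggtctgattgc
Rnf43 downstream start: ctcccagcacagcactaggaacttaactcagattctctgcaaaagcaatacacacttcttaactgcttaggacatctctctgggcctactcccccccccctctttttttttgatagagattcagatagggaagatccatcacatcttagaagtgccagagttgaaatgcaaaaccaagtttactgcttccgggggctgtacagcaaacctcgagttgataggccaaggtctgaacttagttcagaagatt
Neither window holds CTTTGNN with A or T at each N, the site bound by TCF and LEF, the DNA-binding partners of β-catenin, on either strand. Hence no letters are in capitals. Among all promoter windows of 250 bases in the RefSeq table, 4874 of 32851 (14.8%) hold at least 1 of the 4 spellings of this site. The table has entries for 5 members (Rspo1, Rspo4, Lgr4, Lgr6 and Rnf43), with 6 windows, and none held a match. The absence of these letters from a short window says nothing about sites elsewhere.

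To ask whether stabilized β-catenin in zG cells goes along with a different dose of the R-spondin module, counts were compared between genotypes gene by gene. Genes were called with the study's cut-offs, a fold change above 1.4, an adjusted p below 0.05 and a mean normalized count (read counts divided by the library's size factor) above 100, using edgeR's quasi-likelihood test with Benjamini-Hochberg adjustment over 14953 genes. Rnf43 was the 1 member called higher and 0 members were called lower. Over all genes tested, 222 (1.48%) were called higher and 130 (0.869%) lower. Without limits on fold and level, 1 member was higher and 0 lower, against 323 (2.16%) and 228 (1.52%) of all genes. Lgr5 was lower with an unadjusted edgeR p of 0.00782 and was not called after adjustment. DESeq2 called it lower, in a fit that called 280 of 16901 genes lower and 361 higher with the same cut-offs. In Rnf43, every βCat-GOF mouse lay above every Ctrl mouse, as it did for 241 genes (1.61%), and no member was below in the same sense, against 174 genes (1.16%).

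**Figure D1:**
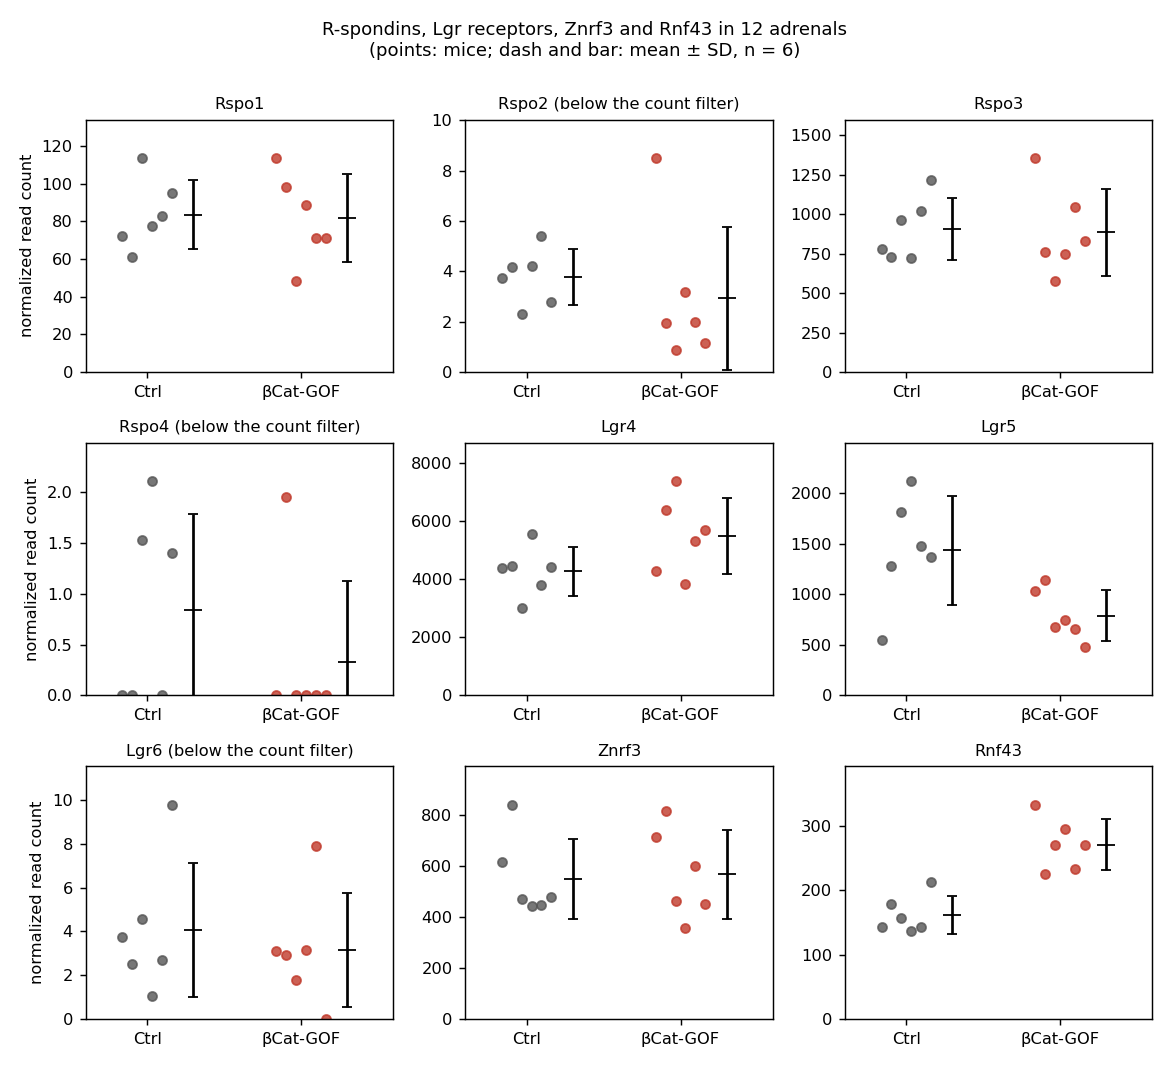
Normalized read counts of the 9 genes in each mouse, by genotype, with the mean ± SD of 6 mice beside the points; each panel has its own axis from 0, and error bars that would go below 0 end there. The groups are apart in Rnf43, and in Lgr5 the single low Ctrl point is replicate 1.

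Among the ligands, Rspo3 was the abundant R-spondin and did not differ detectably between genotypes. Rspo3 (ENSMUSG00000019880, chromosome 10, 29452416 to 29535867, minus strand) measured 720 normalized counts in the lowest Ctrl mouse, 870 at the median and 1215 in the highest. In βCat-GOF the lowest, median and highest were 577, 795 and 1354. The groups overlapped throughout, and the highest and lowest of the 12 values both came from βCat-GOF mice. The log2 fold change was -0.03 (SE 0.20, edgeR adjusted p = 0.950), with a 95% interval from 0.731-fold to 1.31-fold. Of the exon bases of Rspo3, 13.1% are shared with Gm48159 on the opposite strand, and reads there cannot be assigned where counting ignores strand.

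Rspo1 (ENSMUSG00000028871, chromosome 4, 124986430 to 125009099, plus strand), better known for its part in ovarian determination, was expressed at a lower level. It ranged from 60.8 through a median of 80.2 to 113.5 normalized counts in Ctrl, and from 48.3 through 79.9 to 113.6 in βCat-GOF. The medians lay close together and the ranges nearly coincided, with a log2 fold change of -0.03 (SE 0.22, edgeR adjusted p = 0.953) and a 95% interval from 0.704-fold to 1.36-fold.

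Rspo2, best known for limb and lung development, and Rspo4, the nail R-spondin, were at the limit of detection. Rspo2 (ENSMUSG00000051920, chromosome 15, 43020794 to 43170826, minus strand) had 2 to 6 raw counts per Ctrl library and 1 to 11 per βCat-GOF library. Rspo4 (ENSMUSG00000032852, chromosome 2, 151842927 to 151874668, plus strand) had 0 to 2 counts in each group, 7 in all 12 libraries. No difference was detectable at this depth (exact permutation test on log2 CPM, two-sided, p = 0.268 for Rspo2 and p = 0.424 for Rspo4).

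Within each mouse, Rspo3 made up most of the R-spondin signal. Rspo3 made up 86.8% ± 1.98 (SD, n = 6) of the summed R-spondin signal per kilobase of exon in Ctrl, and 86.8% ± 2.89 (SD, n = 6) in βCat-GOF. Rspo1 made up 11.1% to 15.8% in Ctrl and 9.75% to 17.0% in βCat-GOF mice. The ratio of Rspo1 to Rspo3 ran from 0.125 to 0.188 in Ctrl and from 0.108 to 0.206 in βCat-GOF mice. The mixture of R-spondin transcripts thus had the same leading gene in every mouse of both genotypes, with Rspo3 at 82.6% or more of the sum.

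Among the receptors, Lgr4 predominated and Lgr5 was the member with the lowest fold change. Lgr4 (ENSMUSG00000050199, chromosome 2, 109917647 to 110014257, plus strand), the broadly expressed member, measured 3011, 4415 and 5564 normalized counts at the lowest, median and highest Ctrl mouse. In βCat-GOF these values were 3832, 5501 and 7373. The groups overlapped, although 3 βCat-GOF mice exceeded every Ctrl mouse. The log2 fold change was 0.35 (SE 0.16, edgeR adjusted p = 0.254), with a 95% interval from 0.996-fold to 1.62-fold, and Lgr4 was not called under any setting tried.

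Lgr5 (ENSMUSG00000020140, chromosome 10, 115450311 to 115587780, minus strand), a marker of stem cells in intestine and hair follicle, measured 545, 1423 and 2115 normalized counts at the lowest, median and highest Ctrl mouse. In βCat-GOF the lowest, median and highest were 475, 713 and 1144. All 6 βCat-GOF mice lay below the Ctrl median, and the groups overlapped through 1 animal, Ctrl replicate 1 at 545, since the other 5 Ctrl mice started at 1276. The mean was 1433 ± 535 (SD, n = 6) in Ctrl and 788 ± 251 (SD, n = 6) in βCat-GOF. The log2 fold change was -0.87 (SE 0.28), a 0.549-fold ratio with a 95% interval from 0.362-fold to 0.831-fold. After adjustment over all genes the edgeR test did not pass (adjusted p = 0.106), so Lgr5 is not reported as changed. The exact permutation test of Lgr5 alone, with no adjustment over genes, gave p = 0.0433. Without Ctrl replicate 1 the log2 fold change was -1.03 and the adjusted p 0.0218 in edgeR, and with all 12 mice DESeq2 gave -0.86 and 0.0298. The call for Lgr5 therefore rests on the choice of test and on that 1 mouse.

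Lgr5 was set against markers of the adrenal medulla from mouse to mouse, and moved with them most closely among the Ctrl mice. The summed CPM of 6 medulla markers (Th, Dbh, Pnmt, Chga, Chgb and Slc18a1, genes of catecholamine synthesis and storage) ran from 3889 to 11906.5 in Ctrl and from 4898 to 9559 in βCat-GOF. Ctrl replicate 1, the low Ctrl mouse for Lgr5, had the lowest sum of all 12 mice. None of the 6 markers passed the cut-offs, 5 of 6 had a log2 fold change below 0, and their median was -0.35, against 0.00011 over all genes tested. The largest in size were Slc18a1, the vesicular amine transporter (-0.53, edgeR adjusted p = 0.171), and Chga, a secretory granule protein (-0.47, edgeR adjusted p = 0.294). Th gave 0.02 and Pnmt -0.14 (edgeR adjusted p = 0.967 and 0.821). In Ctrl, Chgb and Chga averaged 71873 and 62671 normalized counts, against 10561 for Dbh and 1797 for Slc18a1. The sum therefore follows Chgb and Chga more than Dbh or Slc18a1. All 6 were detected, and none of them was at 0.

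Over the 12 mice, with the group mean taken off each value, Lgr5 and the medulla sum on the log2 CPM scale had a Pearson r of 0.82 and a Spearman rho of 0.67. Permutation tests within genotype gave p = 0.00473 and p = 0.0235, which became 0.0937 and 0.240 after Benjamini-Hochberg adjustment over the 60 pairs of a tested member and a marker list. The Pearson r was 0.98 among the Ctrl mice and 0.45 among the βCat-GOF mice, and 0.61 over the 10 mice left once the 2 farthest from the median of the medulla sum were taken out. Schwann cell markers, which are glial genes of nerve, had an r of 0.82 and a rho of 0.83 with Lgr5 (permutation p = 0.00314 and 0.00331, adjusted 0.0937 and 0.076; r = 0.80 without the 2 farthest mice). Their summed level was low, 9.25 to 19.9 CPM in Ctrl and 8.78 to 16.4 in βCat-GOF.

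Expressed per 1000 CPM of medulla markers, Lgr5 was 8.40 ± 0.921 CPM (SD, n = 6) in Ctrl and 6.06 ± 1.86 (SD, n = 6) in βCat-GOF. On this scale Ctrl replicate 1, at 6.95, was no longer far from the other Ctrl mice, whose highest value was 9.17, and the βCat-GOF mice spread from 3.92 to 8.47. These ratios were chosen after the values were seen and carry no test. The part of the medulla in the Lgr5 difference was not tested.

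**Figure D2:**
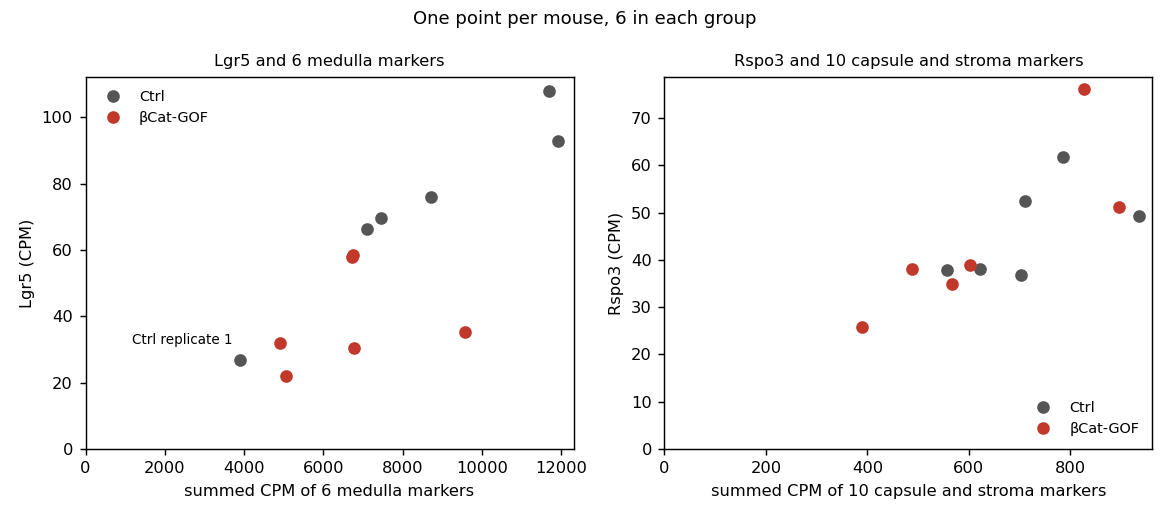
Left, Lgr5 in CPM against the summed CPM of 6 medulla markers; right, Rspo3 in CPM against the summed CPM of 10 capsule and stroma markers; each point is 1 of 12 mice, coloured by genotype. Lgr5 follows the medulla sum closely in Ctrl, with replicate 1 at the low end, while 4 βCat-GOF mice with sums from 4898 to 9559 CPM have 21.9 to 35.2 CPM of Lgr5.

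Lgr6 (ENSMUSG00000042793, chromosome 1, 134983301 to 135105276, minus strand), a receptor known from skin, was near the limit of detection, with 1 to 7 raw counts per Ctrl library and 0 to 8 per βCat-GOF library (exact permutation test, two-sided, p = 0.541). Lgr4 made up 83.7% ± 6.23 (SD, n = 6) of the summed receptor signal per kilobase in Ctrl and 92.0% ± 3.03 (SD, n = 6) in βCat-GOF. Lgr5 made up 16.2% ± 6.22 and 7.94% ± 3.02 of it. The ratio of Lgr5 to Lgr4 ran from 0.0712 to 0.346 in Ctrl mice and from 0.0479 to 0.138 in βCat-GOF mice, overlapping again through Ctrl replicate 1.

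Between the ligases, Rnf43 rose and Znrf3 did not pass the test. Rnf43 measured 137, 151 and 214 normalized counts at the lowest, median and highest Ctrl mouse. In βCat-GOF the values were 226, 271 and 333. The highest Ctrl mouse was thus below the lowest βCat-GOF mouse. The means were 162 ± 29.3 and 271 ± 39.9 (SD, n = 6 each), a 1.67-fold increase with a 95% interval from 1.34-fold to 2.07-fold (log2 fold change 0.74, SE 0.15, edgeR adjusted p = 0.0134). The exact permutation test gave p = 0.0022, the smallest possible with 924 splits of 12 mice into 6 and 6. Leaving out single mice did not end the call of Rnf43 in any of 12 fits, with log2 fold changes from 0.67 to 0.83 and edgeR adjusted p from 0.0107 to 0.0353. When all 3 mice whose labels extend another label were left out, the log2 fold change was 0.62 and the adjusted p 0.0598, which does not pass.

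Znrf3 (ENSMUSG00000041961, chromosome 11, 5276324 to 5444847, minus strand) measured 444, 474 and 840 normalized counts at the lowest, median and highest Ctrl mouse. The βCat-GOF values were 356, 533 and 816. Ctrl replicate 2, at 840, was the highest of all 12 mice and replicate 4 of βCat-GOF the lowest. The log2 fold change was 0.04 (SE 0.21, edgeR adjusted p = 0.934), with a 95% interval from 0.750-fold to 1.42-fold. The interval of Znrf3 overlaps that of Rnf43, and the difference between the 2 ligases in their response was not tested. Per kilobase, Rnf43 made up 26.8% ± 5.25 (SD, n = 6) of the ligase sum in Ctrl and 37.6% ± 8.73 (SD, n = 6) in βCat-GOF. The ratio of Rnf43 to Znrf3 ran from 0.256 to 0.538 and from 0.334 to 1.00, so the groups overlapped in it. With the longest transcript as the length, the Rnf43 share was 30.8% in Ctrl and 42.2% in βCat-GOF. The ratio then ran from 0.311 to 0.655 and from 0.406 to 1.22.

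Some markers of the zG were higher in βCat-GOF, as Rnf43 was. Of 6 zG markers, 4 rose: the angiotensin receptors Agtr1b (log2 fold change 1.55) and Agtr1a (0.89), the calcium sensor gene Vsnl1 (1.00) and the endocytic adaptor gene Dab2 (0.75), and their edgeR adjusted p lay between 0.00413 and 0.0234. The steroidogenic enzymes of the list, the aldosterone synthase gene Cyp11b2 (-0.18, edgeR adjusted p = 0.820) and Hsd3b6 (0.15, edgeR adjusted p = 0.912), did not pass. The summed level of the 6 markers was 1141 to 1582 CPM in Ctrl and 1418 to 2520 CPM in βCat-GOF, and 5 of 6 were above 0 with a median log2 fold change of 0.82. Per 1000 CPM of zG markers, Rnf43 was 6.46 ± 1.45 CPM (SD, n = 6) in Ctrl and 7.22 ± 2.08 (SD, n = 6) in βCat-GOF, with ranges of 4.97 to 8.83 and 4.72 to 10.0 that overlapped. These 2 ranges were computed after the values were seen. From mouse to mouse, with group means taken off, Rnf43 and the zG sum had a Pearson r of -0.04 and a Spearman rho of -0.11 over 12 mice (permutation p = 0.903 and 0.740, adjusted 0.947 and 0.874 over 60 pairs). The r was -0.08 within Ctrl, -0.03 within βCat-GOF and -0.41 without the 2 mice farthest from the median of the sum. The part of zG cell number in the Rnf43 difference was not tested.

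**Figure D3:**
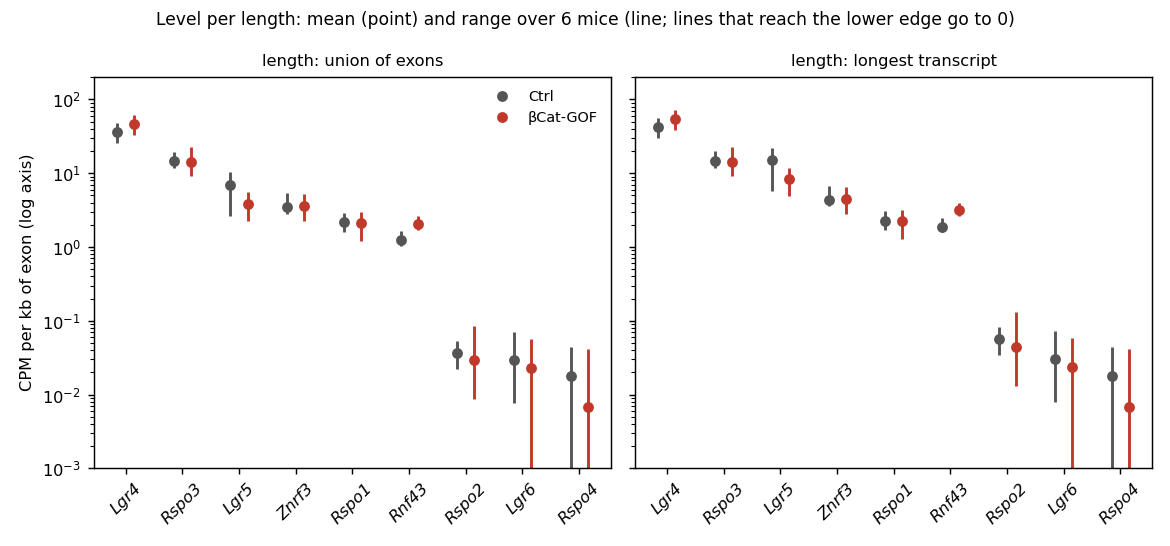
Level per length (CPM per kilobase) of the 9 genes on a log axis, as the mean (point) and range (line) of 6 mice per genotype, with the union of annotated exons (left) or the longest transcript (right) as the length. Lgr4 leads and Rspo2, Lgr6 and Rspo4 trail in both panels, while Lgr5 reaches Rspo3 in Ctrl with the longest transcript.

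Levels were compared between genes as CPM per kilobase of union exon length (on TMM effective library sizes). In Ctrl, Lgr4 led with 36.4 ± 7.23, followed by Rspo3 with 14.6 ± 3.17 and Lgr5 with 6.99 ± 2.62 (SD, n = 6 each). The ranges of these neighbours were apart for Lgr4 and Rspo3 and for Rspo3 and Lgr5. Znrf3 (3.48 ± 1.00), Rspo1 (2.16 ± 0.471) and Rnf43 (1.24 ± 0.224) came next, and from Lgr5 down to Rnf43 each gene's range overlapped that of its neighbour. Rspo2, Lgr6 and Rspo4 averaged 0.0369, 0.0296 and 0.0177 and lay apart from Rnf43.

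In βCat-GOF the order of the 9 genes was unchanged on this scale. Lgr4 was at 46.3 ± 10.6 and Rspo3 at 14.3 ± 4.66, with ranges apart. Lgr5 (3.83 ± 1.27) and Znrf3 (3.59 ± 1.14) overlapped, as did Rspo1 (2.11 ± 0.629) and Rnf43 (2.06 ± 0.328). The place of Lgr5 depends on the length used, because its annotated exons span 10264 bases in union and 4793 in the longest transcript. With the longest transcript Lgr5 was at 15.0 in Ctrl, overlapping Rspo3 at 14.7, and at 8.21 in βCat-GOF. With that length, Rnf43 (3.14) stood above Rspo1 (2.23) in βCat-GOF, with overlapping ranges.

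The other genes of the pathway were counted from lists that were not picked for how they moved in the present fit, although they were written with earlier results of these data known. Of 14 β-catenin targets and feedback genes, 13 were tested, 4 rose and 0 fell, with a median log2 fold change of 0.67 against 0.00011 over all genes tested. Those 4 were Notum, a secreted enzyme that inactivates Wnt ligands (2.08, edgeR adjusted p = 0.000658), Nkd1, a cytoplasmic inhibitor that binds Dishevelled (1.81, 0.00193), Apcdd1, a membrane inhibitor of Wnt (1.45, 0.00625), and Tcf7, a DNA-binding partner of β-catenin (0.52, 0.0100). Several genes of this list are named by the study from these same samples, so it is not independent evidence of direction. Rnf43, with 0.74, lay near the median of that list, and Znrf3, with 0.04, lay below it.

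Of 15 receptor and co-receptor genes, all were tested, 1 rose and 0 fell, with a median of 0.16. The one that rose was Ror2, a tyrosine kinase receptor of Wnt5a (1.14, edgeR adjusted p = 0.0125). Fzd5, one of the Frizzled receptors on which Rnf43 and Znrf3 act, gave 0.56 (edgeR adjusted p = 0.0538); it was picked out after its value was seen.

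Of 19 Wnt ligand genes, 9 passed the filter on low counts and 0 passed the test in either direction. Their median log2 fold change was 0.41, and the largest in size was that of Wnt4, a ligand of the zG (0.79, edgeR adjusted p = 0.0945). Wnt10a, Wnt6 and Wnt2b gave 0.64, 0.49 and 0.46, with edgeR adjusted p from 0.176 to 0.340.

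Of 14 secreted antagonists and Kremen genes, 8 were tested, 0 rose and 1 fell, with a median of -0.08. Frzb, a secreted Frizzled-related protein that binds Wnt ligands, fell by 0.99 on the log2 scale (edgeR adjusted p = 0.000658). Of 11 genes of the Dishevelled proteins and the destruction complex, including Ctnnb1, all were tested and 0 passed in either direction. Their median was 0.03 and their range -0.10 to 0.30, with Csnk1e, a kinase of the pathway, at the upper end (edgeR adjusted p = 0.171).

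**Figure D4:**
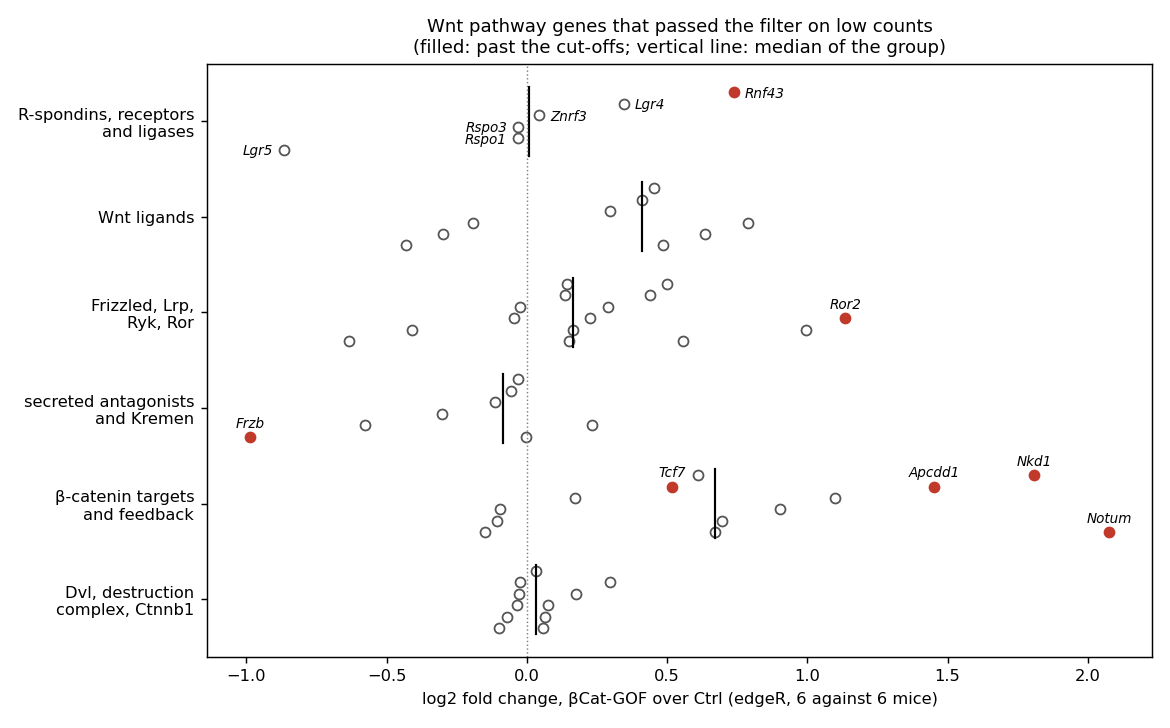
Log2 fold change of βCat-GOF over Ctrl (horizontal axis) for the tested genes of the R-spondin module and of 5 other Wnt lists; filled points are past the cut-offs and named, and a vertical line marks each list's median. Rnf43 at 0.74 is the filled point of the R-spondin module, and Lgr5 at -0.87 is open.

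Rspo3 and Rspo1 were also set against markers of capsule and stroma. The 10 markers, mostly fibroblast and collagen genes with the capsular transcription factors Gli1, Nr2f2 and Tcf21, had a summed level of 557 to 935 CPM in Ctrl and 389 to 897 CPM in βCat-GOF. None passed the cut-offs, 5 of 10 were above 0 and the median log2 fold change was -0.06. Gli1 gave 0.53 (edgeR adjusted p = 0.210) and the proteoglycan gene Dcn -0.47 (edgeR adjusted p = 0.260). Over 12 mice, with group means taken off, Rspo3 had a Pearson r of 0.81 and a Spearman rho of 0.83 with the capsule sum. The permutation p values were 0.00553 and 0.00262, and 0.0937 and 0.076 after adjustment over 60 pairs, and r was 0.75 without the 2 mice farthest from the median. Within genotypes, r was 0.63 in Ctrl and 0.88 in βCat-GOF.

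For Rspo1 and the same sum, r was 0.73 and rho 0.75 (permutation p = 0.0173 and 0.013, adjusted 0.148 and 0.195), with 0.99 in Ctrl, 0.63 in βCat-GOF and 0.91 without the 2 farthest mice. Per 1000 CPM of capsule markers, Rspo1 was 5.79 ± 0.233 CPM (SD, n = 6) in Ctrl and 6.70 ± 1.54 (SD, n = 6) in βCat-GOF, and Rspo3 was 63.4 ± 10.6 and 71.1 ± 10.8. The groups overlapped in both. Rspo1 was about as close to the Schwann sum, with r = 0.70 and rho = 0.82 (permutation p = 0.0160 and 0.0038, adjusted 0.148 and 0.076; r = 0.65 without the 2 farthest mice, 0.75 in Ctrl and 0.69 in βCat-GOF). Znrf3 and the sum of zona fasciculata markers gave r = -0.76 and rho = -0.73 (permutation p = 0.00625 and 0.0290, adjusted 0.0937 and 0.240), with -0.68 without the 2 farthest mice, -0.32 in Ctrl and -0.94 in βCat-GOF. Lgr4 and the sum of 2 X-zone markers gave r = 0.70 and rho = 0.62 (permutation p = 0.0155 and 0.0487, adjusted 0.148 and 0.265). Rnf43 and that sum gave r = -0.63 and rho = -0.51 (permutation p = 0.0360 and 0.113, adjusted 0.240 and 0.376). The X-zone sum ran from 249 to 5334 CPM in Ctrl and from 112 to 6183 CPM in βCat-GOF. None of the 60 relations passed the adjustment at 0.05.

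Among markers of the other cell types, calls came from the zona fasciculata and leukocyte lists. Over all genes tested, 1.48% were called higher and 0.869% lower. In the zona fasciculata list 2 of 4 genes rose, Akr1b7, a detoxifying reductase, at 1.48 and Mrap, the partner of the corticotropin receptor, at 1.03 (edgeR adjusted p = 0.0458 and 0.0433) and the list median was 0.59. Cyp11b1, the enzyme that makes corticosterone, gave -0.18 (edgeR adjusted p = 0.669) and Mc2r, the corticotropin receptor, 0.16 (edgeR adjusted p = 0.387). The summed level of the 4 genes was 14649 to 18063 CPM in Ctrl and 9419 to 27186 CPM in βCat-GOF. Of 5 leukocyte markers, Adgre1, a macrophage gene, fell by 0.78 (edgeR adjusted p = 0.0459), with a list median of -0.53 and sums of 99.8 to 148 and 86.2 to 130 CPM. No gene passed among 7 endothelial markers (median -0.22), 4 tested smooth muscle markers (-0.16), 3 tested Schwann markers (-0.17), 4 adipocyte markers (-0.22), 2 X-zone markers (0.04) and these 5 genes of the whole cortex (-0.02).

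The genes most like each member over the 12 mice were found by the Pearson correlation of log2 CPM after the group mean was taken off, among genes with a mean normalized count above 100, as a description. The values share libraries, depth and dissection. For Lgr5 they included Sidt1 (r = 0.98) and Rap1gap2 (0.98), a regulator of the small GTPase Rap. Their log2 fold changes were -0.74 and -0.77, with edgeR adjusted p of 0.146 and 0.110. For Rspo3 they were Nr2f2 (0.94), which is also one of the capsule markers, Wisp1 (0.92) and the chloride channel gene Ano1 (0.92), and for Rspo1 they were 6330403L08Rik (0.94), Atp2a3 (0.93) and Adgra2 (0.93), a co-receptor of Wnt7 ligands. For Lgr4 they were Pik3r1, Rab2b and Gda (0.92 each), for Znrf3 Gbp7 (0.96), Ddhd1 (0.95) and Zfp933 (0.93), and for Rnf43 Lysmd4 (0.92), Sox4 (0.88) and Mmgt2 (0.85). None of these genes passed the cut-offs, and the 3 for Rnf43 had log2 fold changes from -0.18 to -0.02, unlike its own 0.74.

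**Figure D5:**
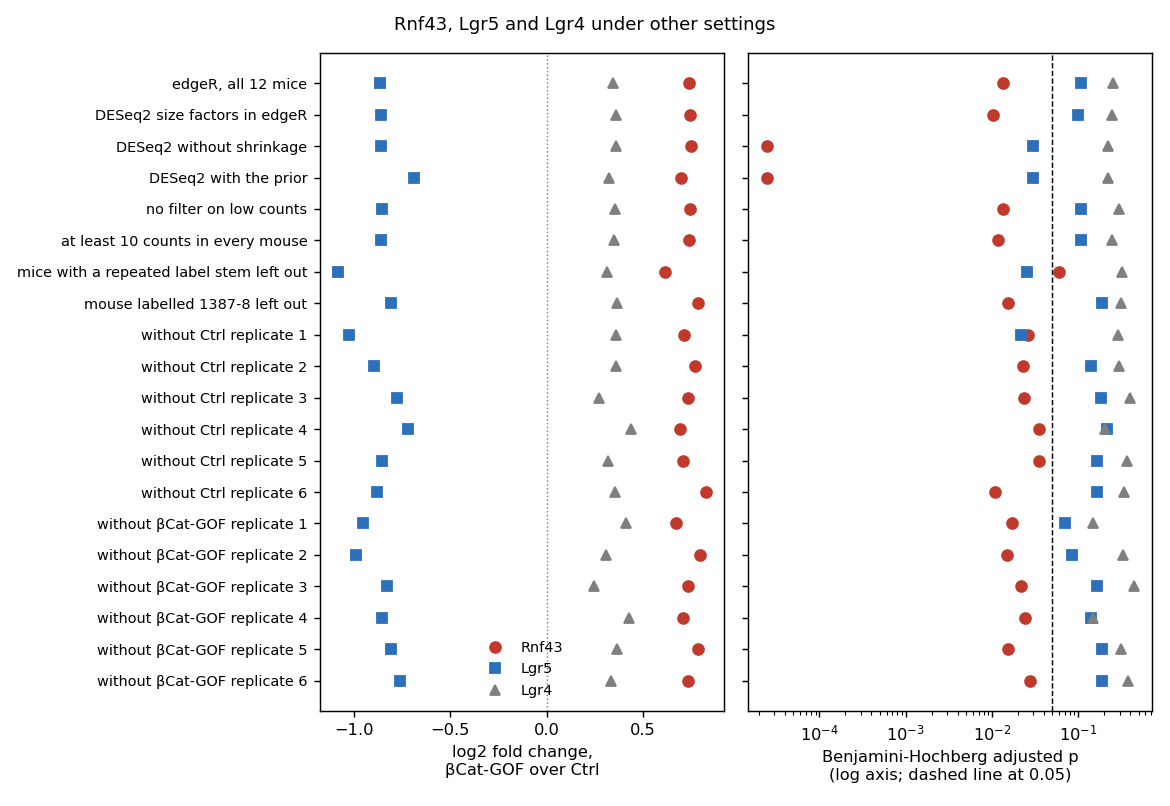
Log2 fold change of βCat-GOF over Ctrl (left) and adjusted p on a log axis (right) of Rnf43, Lgr5 and Lgr4 in the fit of all 12 mice (top line) and in 19 alternatives. Rnf43 is left of 0.05 in all alternatives but the one without the 3 mice with extended labels, Lgr5 is left of it in 4 and Lgr4 in none. The fit without βCat-GOF replicate 5 is repeated under another setting.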

How the data were processed

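Per the labels and the study's methods, polyadenylated RNA of 12 whole female adrenals was sequenced, reads were aligned with STAR, and the authors counted uniquely mapped reads per gene with featureCounts (version 1.4.4). The strand setting and annotation release are not given in the sources used here. The authors deposited raw counts per gene, used for all tests, and a normalized signal (counts divided by 1 factor per library, from DESeq2 1.6.3), used for gene symbols and a check. Of 39017 gene IDs, 966 have no symbol.

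Groups and mice come from the labels. Counts were tested with edgeR 4.0.16 (TMM, filterByExpr, quasi-likelihood test, two-sided) over the whole table, with Benjamini-Hochberg adjustment. The cut-offs (fold above 1.4, adjusted p below 0.05, mean normalized count above 100) follow the study's methods. SE is the absolute log2 fold change divided by the square root of F. Single genes were also compared by an exact permutation test of log2 CPM (prior count 2). Relations with marker sums used 100000 permutations within genotype. Lengths and positions are from GENCODE M21 (GRCm38) and promoters from RefSeq (GRCm38.p6). DESeq2 1.42.0 and other filters, scalings and sets of mice were tried as alternatives. The scripts were tested on simulated data. P-values set a difference or a relation against the spread between these mice. A floor of 3 counts was taken, which covers counting error only.

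Named were all 9 members, at most 4 genes of each of 16 lists (those past the cut-offs with the largest log2 fold change in size, otherwise the largest among tested genes) and the 3 genes most like each tested member. The other zG, zona fasciculata and medulla markers named, marker relations, shares and ratios between members were chosen after the values were seen. The members and lists were chosen with earlier results of these data known. Some genes that the lists or the rule would name are not reported here, and a listed marker among them was left out of its list's values.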

Additional observations from a re-analysis of the deposited data

Results flagged for a closer look

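Each of the 9 genes was checked for a mouse that stands apart in its group of 6 (Dixon's test on normalized counts), which chance flags in about 1 of 20 groups, and 2 of 18 groups were flagged. In βCat-GOF replicate 1, Rspo2 was at 8.50 normalized counts (11 raw counts), where the other 5 mice of the group had 1 or 2 raw counts. In βCat-GOF replicate 2, Rspo4 was at 1.95 normalized counts (2 raw counts), where the other 5 had 0. Both rest on few counts, for which the rate of 1 in 20 does not hold. Neither gene passed the filter on low counts of the edgeR fit. βCat-GOF replicate 1 was also the highest of the 12 mice for Rspo1 (113.6 normalized counts), Rspo3 (1354) and Rnf43 (333).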

How the results depend on the processing

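Leaving out the 3 mice whose labels extend another label turned the 1 member called higher (Rnf43) into 0, and the 0 members called lower into 1 (Lgr5, log2 fold change -1.08, edgeR adjusted p = 0.0252). The 2 DESeq2 fits, without shrinkage and with the prior, also gave 1 member lower (Lgr5, adjusted p = 0.0298 and 0.0301). These member counts were the same with and without limits on fold and level. Over all genes, the fit without those 3 mice called 255 of 14954 higher and 228 lower past the cut-offs. The DESeq2 fits called 361 and 327 of 16901 higher and 280 and 254 lower. Against these, the main fit called 222 of 14953 higher and 130 lower. Over the 12 fits that left out 1 mouse, the count of members lower ranged from 0 to 1, with the 1 from the fit without Ctrl replicate 1, and the count of members higher stayed at 1. The fit without Ctrl replicate 1 called 192 of 15043 genes lower and 187 higher. The fit without βCat-GOF replicate 1 called 223 of 14994 genes lower, Lgr5 not among them, and 340 higher. The cause of these shifts was not tested. Among the 19 alternatives, the fit without βCat-GOF replicate 5 is repeated under another setting. Over 19 alternatives Rnf43 passed in 18 (log2 fold change 0.62 to 0.83) and Lgr5 in 4 (-1.08 to -0.69), Lgr4 was above 0 in 19 and passed in 0 (adjusted p 0.147 to 0.442), and Rspo1, Rspo3 and Znrf3 changed sign around 0 and passed in 0. Another length moved 5 of 18 levels by more than 1 SD, and total counts as the scale moved 0. Depth limits Rspo2, Rspo4 and Lgr6, which had 43, 7 and 43 counts in all. No paired analysis was possible because nothing in the labels pairs a Ctrl mouse with a βCat-GOF mouse.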
